A study of Mus musculus with 8 samples.

Results

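The clustered protocadherins were taken as every gene whose symbol places it in the alpha, beta or gamma protocadherin cluster, which gave 58 of the 21058 genes in the count table. There were 14 genes in the alpha cluster, 22 in the beta cluster and 22 in the gamma cluster. The family was taken up because *Pcdha11* rose strongly in mutant pachytene spermatocytes, so the differences between genotypes given for these genes are a description. Where a member is called higher or lower below, the word gives its place in the fit across all genes and is no independent test.

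Libraries were made from pachytene spermatocytes, the meiotic cells in which homologous chromosomes are fully synapsed, purified from adult testes by Sta-Put sedimentation at unit gravity. There were 4 *Arid1a* cKO libraries, from *Arid1a* fl/fl males that carried the *Stra8-Cre* transgene (Tg/0), and 4 *Arid1a* WT libraries, from *Arid1a* fl/fl or *Arid1a* fl/+ males. Both genotypes thus carried floxed *Arid1a*, the gene of the DNA-binding subunit that defines the canonical BAF chromatin remodeller, and the floxed mice were on a CD1 background. *Stra8-Cre* acts in germ cells from the spermatogonial stage, its excision of *Arid1a* was incomplete, and the testes of several males were pooled for each purification, so the mutant libraries also held spermatocytes that had escaped excision. The labels call the libraries biological replicates without saying that each came from its own purification, so the errors and p-values below measure the spread between these libraries.

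Clustered protocadherins are cadherin-like adhesion proteins best known from neurons, where each cell shows its own set of isoforms on its surface and recognises the neurites of its own. Each gene of the alpha and gamma clusters has a variable first exon with its own promoter, which is spliced to constant exons shared by the whole cluster, while a beta gene is a single exon. Promoter choice in neurons depends on CTCF and cohesin, which fold distant enhancers onto the promoters, and on DNA methylation, which keeps the other promoters silent.

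The libraries held 18308621 to 22044353 estimated counts in *Arid1a* WT and 15850842 to 21626689 in *Arid1a* cKO. *Arid1a* itself stood at 98.8 to 128.5 CPM (counts per 1000000, with library sizes adjusted by TMM) in *Arid1a* WT and at 76.4 to 82.9 in *Arid1a* cKO, a log2 fold change of -0.51 (SE 0.07, quasi-likelihood test in edgeR, Benjamini-Hochberg adjusted over all genes, adjusted p = 2.3e-05, n = 4 and 4). Markers of other cells moved with genotype. The counts of called markers stand beside 36.5% of all genes tested called higher and 37.5% called lower. All 13 spermatid markers were called higher, with a summed level of 5932 to 6728 TPM (Salmon's estimate of abundance per transcript length) in *Arid1a* WT and of 23746 to 25632 TPM in *Arid1a* cKO. All 8 Sertoli markers were called lower (366 to 429 TPM against 93.02 to 101.3), and so were 5 of 6 Leydig markers (76.7 to 89.9 TPM against 6.96 to 8.59) and 6 of 8 pachytene markers, with the other 2 higher (7886 to 8969 TPM against 6248 to 6615). Of 6 leptotene and zygotene markers, 3 were called higher and 3 lower (388 to 433 TPM against 176 to 192), and of 8 spermatogonial markers 7 were called higher and 1 lower (111 to 120.5 TPM against 112 to 121). Markers of macrophages and blood (5 of 7 called higher and 1 lower, 6.32 to 7.88 TPM against 9.24 to 12.1), peritubular cells (4 of 5 higher, 8.08 to 10.7 TPM against 10.9 to 12.9) and endothelium (3 of 5 higher and 1 lower, 4.67 to 5.73 TPM against 6.44 to 6.99) were low in both genotypes. Of 8 markers of neurons and glia, 1 was called higher and 2 lower (20.4 to 25.6 TPM against 16.8 to 18.0), and no listed marker was at 0 in all 8 libraries. In bulk libraries, fewer cells of a type and less RNA per cell cannot be told apart, and the part of these shifts in the protocadherin values was not tested.

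The clusters lie in a row on chromosome 18 (GRCm38), the alpha genes at 36930285 to 37188897, the beta genes at 37264998 to 37521419 and the gamma genes at 37661775 to 37841873. The summed level of the alpha cluster was lower in *Arid1a* cKO, while the sums of the beta and gamma clusters were higher. The alpha sum was 147, 150.4, 149 and 151 CPM in the *Arid1a* WT libraries and 80.03, 79.8, 78.1 and 78.8 CPM in the *Arid1a* cKO libraries, a log2 ratio of the means of -0.92. Every mutant library lay far below every wild-type library, and the libraries within a genotype were nearly level. The gamma sum was 86.0, 89.1, 94.4 and 92.0 CPM in *Arid1a* WT and 119, 119, 115 and 114 CPM in *Arid1a* cKO, a log2 ratio of 0.37. The beta sum was 1.29, 2.01, 3.46 and 1.32 CPM in *Arid1a* WT and 4.09, 4.28, 3.97 and 3.98 CPM in *Arid1a* cKO, a log2 ratio of 1.02. Neither the gamma nor the beta sums overlapped between genotypes, and over all 58 genes the mean summed level went from 242 ± 5.21 to 200.1 ± 3.95 CPM (SD, n = 4 each). A sum of counts over the alpha or the gamma cluster does not depend on how reads of the shared constant exons were divided among its genes. A sum of TPM does depend on it, through the lengths of the transcripts. Genes other than the members also share some of this sequence, and reads assigned to them are in neither sum.

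**Figure D1:**
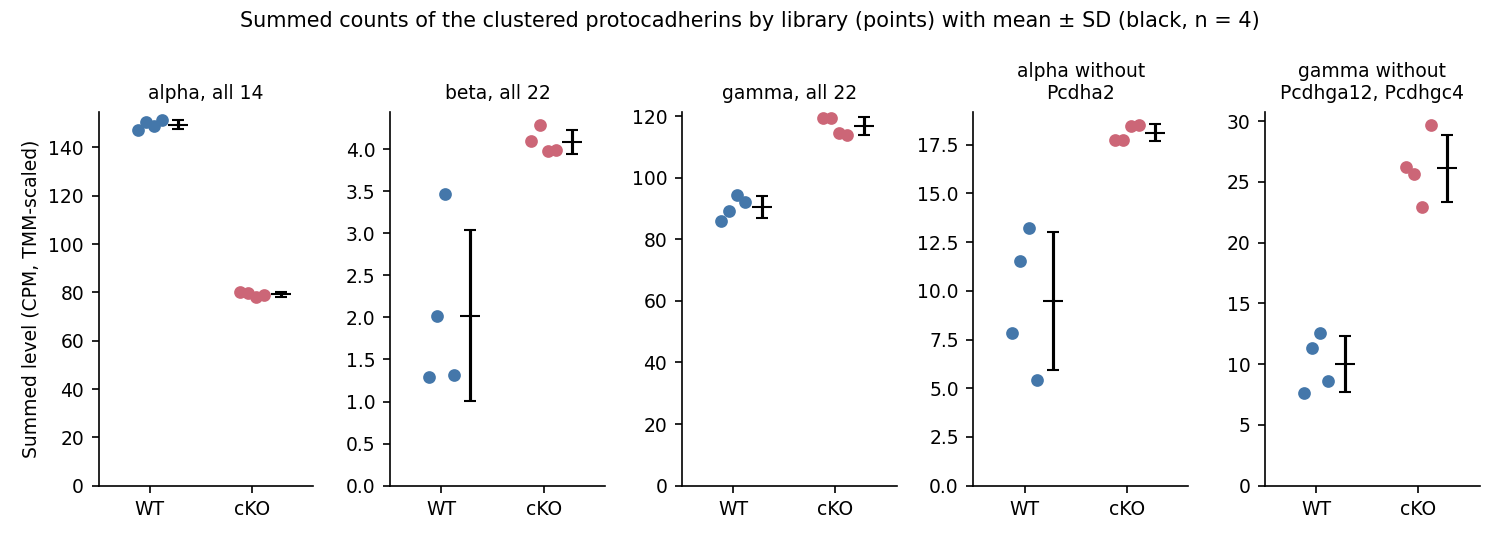
Summed level of each cluster in CPM, 1 point per library and mean ± SD in black (n = 4 per genotype), for all members and with the leading genes left out. The alpha sum is lower in all 4 cKO libraries, but without *Pcdha2* it is higher in all 4 (17.8 to 18.5 against 5.41 to 13.2 CPM).

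A few genes held most of the signal. *Pcdha2*, *Pcdhga12* and *Pcdhgc4* together took 88.1% to 93.7% of all clustered protocadherin counts in *Arid1a* WT and 73.5% to 76.9% in *Arid1a* cKO. Per transcript length, 3 members exceeded a mean level of 1 TPM in *Arid1a* WT and 7 did so in *Arid1a* cKO. In *Arid1a* WT the order of mean levels was *Pcdha2* (38.8 TPM), *Pcdhgc4* (24.1 TPM), *Pcdhga12* (13.1 TPM) and *Pcdhgc5* (0.83 TPM). In *Arid1a* cKO it was *Pcdhgc4* (27.7 TPM), *Pcdha2* (15.3 TPM), *Pcdha11* (12.6 TPM), *Pcdhga12* (12.1 TPM), *Pcdhgc5* (3.18 TPM), *Pcdhgb2* (1.99 TPM) and *Pcdha1* (1.22 TPM). In that mutant order, the library values of *Pcdha11* and *Pcdhga12* overlapped. The TPM order depends on the transcript lengths given below, which were short for *Pcdhgc4* and *Pcdha11*. By counts alone the mutant order was *Pcdha2* (61.1 CPM), *Pcdhga12* (45.9 CPM), *Pcdhgc4* (44.8 CPM), *Pcdhgc5* (11.5 CPM), *Pcdhgb2* (6.87 CPM), *Pcdha1* (4.56 CPM) and *Pcdha11* (4.48 CPM). In this order the library values of *Pcdhga12* and *Pcdhgc4* overlapped, as did those of *Pcdha1* and *Pcdha11*.

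**Figure D2:**
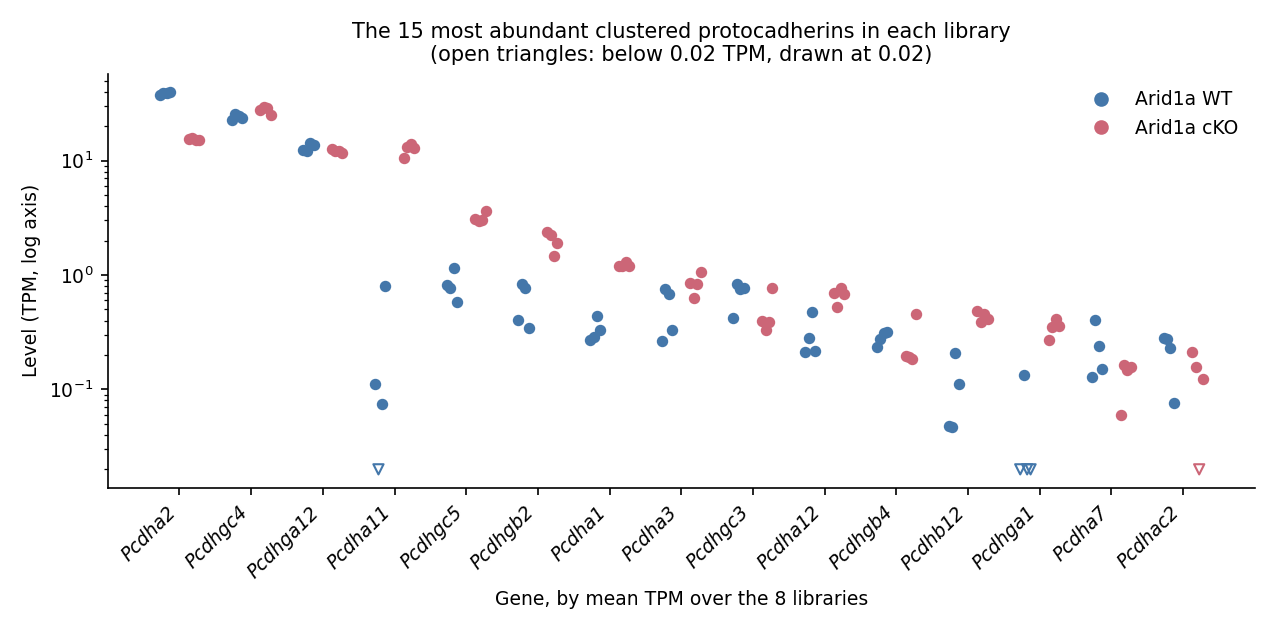
Level of the 15 most abundant members in TPM on a log axis, with 1 point per library in *Arid1a* WT (blue) and *Arid1a* cKO (red). *Pcdha2* is lower in every cKO library, and *Pcdha11*, *Pcdhgc5*, *Pcdhgb2* and *Pcdha1* are higher in every cKO library.

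Of the 58 members, 44 had at least the 10 counts, summed over the 8 libraries, that the fit across all genes required. In that fit 14 members were called higher and 3 lower at an adjusted p of 0.05 or less, beside 36.5% of all 17643 genes tested called higher and 37.5% called lower, so that 17 were called in either direction, beside 74.0%. Since the family was chosen on this contrast, nothing is read from these counts. The 4 *Arid1a* cKO libraries all lay above the 4 *Arid1a* WT libraries for 12 tested members and all below for 1, beside 34.0% and 34.9% of all genes. Of the 17 called members, 6 averaged under 10 counts a library. The median log2 fold change of the tested members was 0.46, beside -0.02 over all genes. Where no library of a genotype had over 3 counts, the member was also set to its bound against a floor of 3 counts per library, and left out if this held for both genotypes, which gave a median of 0.18.

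**Figure D3:**
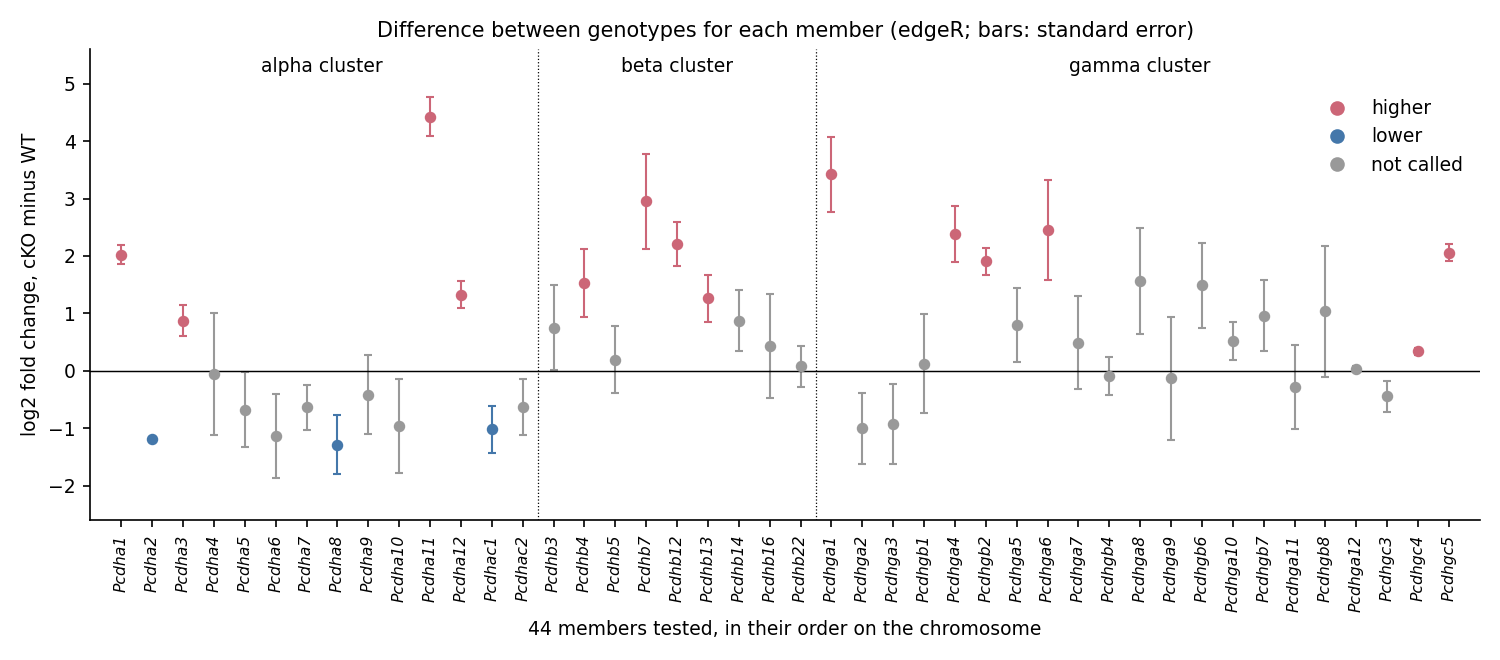
Log2 fold change (*Arid1a* cKO minus *Arid1a* WT) with its standard error from edgeR for the 44 members tested, in chromosomal order within the alpha, beta and gamma clusters. *Pcdha11* stands highest at 4.43, *Pcdha2* is at -1.20, and the bars are widest for members with few counts.

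In the alpha cluster, whose products reach the cell surface with the help of beta or gamma partners, *Pcdha2* set the level. *Pcdha2* had 2819, 3036, 2701 and 3204 counts in *Arid1a* WT and 1157, 1087, 1246 and 938 in *Arid1a* cKO. All mutant libraries were low and the genotypes did not overlap. Its level went from 140 ± 4.28 to 61.1 ± 1.31 CPM (SD, n = 4 each), a log2 fold change of -1.20 (SE 0.05). *Pcdha2* held 91.1% to 96.4% of alpha counts in *Arid1a* WT and 76.3% to 77.8% in *Arid1a* cKO. It also lost place among all genes, lying above 80.3% of them by mean TPM in *Arid1a* WT and above 69.8% in *Arid1a* cKO.

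*Pcdha11* moved the other way. It had 6, 0, 4 and 7 counts in *Arid1a* WT and 71, 81, 103 and 71 in *Arid1a* cKO. The wild-type libraries were close to empty, every mutant library was well above them, and the mutant libraries were close together. The mean level was 0.204 ± 0.145 CPM in *Arid1a* WT and 4.48 ± 0.470 CPM in *Arid1a* cKO (SD, n = 4 each), a log2 fold change of 4.43 (SE 0.33). By mean TPM, *Pcdha11* lay above 25.8% of all genes in *Arid1a* WT and above 67.2% in *Arid1a* cKO. The wild-type mean rests mostly on replicate 4, at 0.798 TPM against 0 to 0.112 TPM in the other replicates.

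The transcripts behind these *Pcdha11* estimates were short. The quotient of a gene's count and its TPM gives, once calibrated on genes with a single annotated transcript, the mean effective length of the transcripts to which its reads were assigned. For *Pcdha11* it was 485, 486, 485 and 491 bases in the *Arid1a* cKO libraries. In *Arid1a* WT it was 4075 and 4074 bases in replicates 1 and 3 and 575 bases in replicate 4, while replicate 2 had no *Pcdha11* read. All mutant libraries were thus short and alike, and the wild-type libraries, each resting on 7 counts or fewer, were split. For *Pcdha2* the length was 5427 to 5476 bases in all 8 libraries, close to the 5361 bases of its full-length transcript. Among the GENCODE M21 transcripts of *Pcdha11*, the one near the mutant length was *Pcdha11*-204, with 625 bases in 4 exons from 37012252 to 37185217 on chromosome 18. The one near the length in *Arid1a* WT replicates 1 and 3 was *Pcdha11*-206, annotated with a retained intron, with 4038 bases. The full-length *Pcdha11*-202 had 5360 bases, and no library with *Pcdha11* reads lay near that length.

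The short transcript keeps 205 bases of the variable exon, followed by the shared constant exons of 59 and 89 bases and the first 272 bases of the last constant exon, which is 2712 bases long in *Pcdha2*. Other members held 91.3% of its 595 stretches of 31 bases, and 23 of these stretches were in no other annotated transcript. The share held by other members was 63.1% for full-length *Pcdha11* and 62.0% over the transcripts of *Pcdha2*. Genes other than the members held 20.5% of the stretches of *Pcdha11*-204. How far the *Pcdha11* estimate rests on the division of constant exon reads among the alpha genes was not tested. An exon of the annotated antisense gene *Gm10545*, which was not among the genes of the table, covers 100% of the variable part of *Pcdha11*-204. Reads of the antisense gene and of *Pcdha11* there cannot be told apart without strand, and the strand setting of the quantification was not given in the sources used here. On the TPM scale, which divides by this length, *Pcdha11* went from 0.246 ± 0.371 to 12.6 ± 1.49 (SD, n = 4 each), and the alpha sum from 41.7 ± 1.54 to 31.5 ± 1.39 TPM, a log2 ratio of -0.40 in place of -0.92.

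**Figure D4:**
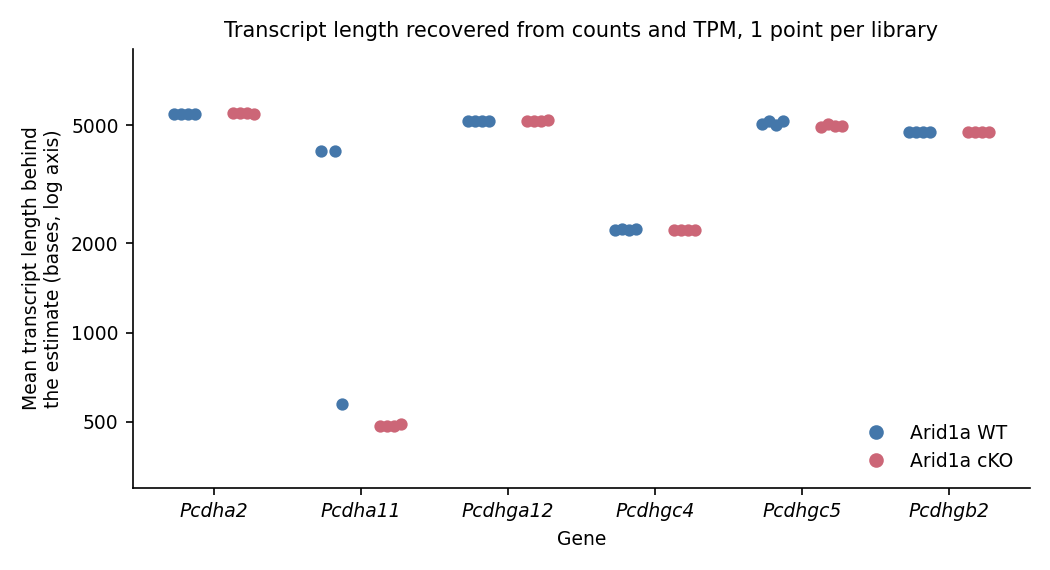
Effective transcript length recovered from counts and TPM for 6 members, in bases on a log axis, with 1 point per library that had reads. *Pcdha11* sits at 485 to 491 bases in the 4 cKO libraries and *Pcdhgc4* at 2214 to 2232 in both genotypes. *Pcdhgc5* lies at 4940 to 5163 bases, above its full length of 4741, and *Pcdha2*, *Pcdhga12* and *Pcdhgb2* lie near full length.

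The rest of the alpha cluster held few reads. Without *Pcdha2*, the alpha sum was 7.82, 11.5, 13.2 and 5.41 CPM in *Arid1a* WT and 17.8, 17.8, 18.5 and 18.5 CPM in *Arid1a* cKO. Without *Pcdha11* as well, it was 5.10 to 13.0 CPM in *Arid1a* WT and 13.1 to 13.9 CPM in *Arid1a* cKO. The genotypes then almost touched, with *Arid1a* WT replicate 3 at 13.0 CPM just under *Arid1a* cKO replicate 2 at 13.1 CPM.

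*Pcdha1* and *Pcdha12*, at either end of the run of alternate alpha genes, were higher without overlap, and *Pcdha3* was called higher with overlap. *Pcdha1* had 19, 20, 30 and 25 counts in *Arid1a* WT and 83, 77, 101 and 71 in *Arid1a* cKO, a log2 fold change of 2.02 (SE 0.17). *Pcdha12* had 16, 22, 33 and 18 counts against 53, 36, 63 and 42, a log2 fold change of 1.32 (SE 0.24). In both, the lowest mutant library stood above the highest wild-type library, by a narrow margin in *Pcdha12*. *Pcdha3* had 20, 58, 47 and 27 counts against 63, 43, 69 and 65, a log2 fold change of 0.87 (SE 0.27), and its call was lost on both log2 TPM scales.

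The members called lower beside *Pcdha2* were scarce. *Pcdha8* had 12, 18, 17 and 4 counts in *Arid1a* WT and 5, 2, 9 and 2 in *Arid1a* cKO (log2 fold change -1.29, SE 0.52). *Pcdhac1*, one of the C-type genes at the 3′ end of the cluster, had 16, 9, 13 and 9 counts against 5, 2, 9 and 4 (-1.02, SE 0.41). Both overlapped between genotypes, and both calls were lost in DESeq2, on log2(TPM + 1) and in 5 of the 8 fits with a library left out (*Arid1a* WT replicates 1 and 3 and *Arid1a* cKO replicates 1, 2 and 4), each of which took the alpha members called lower from 3 to 1. The 7 alpha members not called, *Pcdha4* to *Pcdha7*, *Pcdha9*, *Pcdha10* and *Pcdhac2*, had log2 fold changes of -1.13 to -0.06. Of the 14 alpha members tested, 4 were called higher and 3 lower, beside 36.5% and 37.5% of all genes tested. All mutant libraries lay above all wild-type libraries for 3 of them and below for 1, beside 34.0% and 34.9% of all genes. The median over the 14 alpha members was -0.63.

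The beta genes, which encode single-exon adhesion proteins without the constant cytoplasmic domain, were nearly silent in both genotypes. Of the 22, 13 had too few counts to test, among them *Pcdhb8* and *Pcdhb21*, which were at 0 in all 8 libraries. No beta gene reached a mean level of 1 TPM. Of the 9 tested, 4 were called higher, all without overlap between genotypes, and 5 were not called, beside 36.5% of all genes called higher and 34.0% with every mutant library above. The number called higher was 1 with filterByExpr and 2 on log2(TPM + 1). The median log2 fold change was 0.87, and 0.98 with *Pcdhb4* and *Pcdhb7* at their floor and without the 2 genes that never exceeded 3 counts.

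*Pcdhb12* had the highest mean TPM over the 8 libraries, although *Pcdhb22* was higher in *Arid1a* WT (0.147 against 0.104 TPM). It had 2, 2, 8 and 5 counts in *Arid1a* WT and 20, 15, 21 and 14 in *Arid1a* cKO. The groups were well apart. Its level went from 0.205 ± 0.145 to 0.959 ± 0.0999 CPM (SD, n = 4 each), a log2 fold change of 2.21 (SE 0.39). Other members shared 22.5% of its 31-base stretches. *Pcdhb13* had 3, 6, 7 and 2 counts against 11, 10, 10 and 7 (1.26, SE 0.41). *Pcdhb7* had 1, 0, 2 and 0 counts against 4, 12, 3 and 4, at least 2.27-fold higher in *Arid1a* cKO than a floor of 3 counts per library. That bound leaned on *Arid1a* cKO replicate 2, at 0.685 CPM against 0.144 to 0.257 CPM in the other mutant libraries. *Pcdhb4* had 3, 2, 0 and 3 counts against 6, 4, 8 and 3, at least 1.97-fold higher by the same floor, and its call was lost in DESeq2 and in several fits with a library left out. For *Pcdhb7* and *Pcdhb4* the lowest mutant count was 3, so the separation rests on a few reads, and for *Pcdhb4* the lowest mutant library differed from the highest wild-type libraries only after scaling for depth.

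*Pcdhb22*, the last beta gene, was not called. It had 7, 17, 19 and 12 counts in *Arid1a* WT and 9, 9, 16 and 16 in *Arid1a* cKO, a log2 fold change of 0.08 (SE 0.35) with overlapping genotypes. *Pcdhb5* was at 0.19 (SE 0.58) and was not called. The wild-type beta sum varied most through *Arid1a* WT replicate 3, which held 69 beta counts against 26 to 44 in the other wild-type libraries and 62 to 83 in the mutant libraries. The log2 ratio of the beta sums was 1.41 without that library. The same library also had the highest wild-type sum in the alpha cluster without *Pcdha2* and in the gamma cluster without its leading genes, and it stood apart in *Ctcfl* (given below). The part of this library in the beta values beyond its own counts was not tested.

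In the gamma cluster, *Pcdhga12* and *Pcdhgc4* were abundant in both genotypes. *Pcdhga12* had 883, 896, 943 and 1047 counts in *Arid1a* WT and 892, 807, 953 and 681 in *Arid1a* cKO, which overlapped. Its level was 44.9 ± 3.17 CPM in *Arid1a* WT and 45.9 ± 1.75 CPM in *Arid1a* cKO (SD, n = 4 each), a log2 fold change of 0.03 (SE 0.06), and on the TPM scale the mean was instead lower in *Arid1a* cKO (12.1 against 13.1).

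*Pcdhgc4*, a C-type gene whose product neurons need for survival, had 702, 806, 688 and 787 counts in *Arid1a* WT and 841, 834, 962 and 630 in *Arid1a* cKO. Scaled for depth, its level was 34.5 to 36.9 CPM in *Arid1a* WT and 40.5 to 47.6 CPM in *Arid1a* cKO, a log2 fold change of 0.34 (SE 0.06). The genotypes did not overlap in CPM, but they did in TPM, where *Arid1a* cKO replicate 4 (25.1 TPM) lay below *Arid1a* WT replicate 2 (25.6 TPM). Its effective length was 2214 to 2232 bases in all 8 libraries. That is close to *Pcdhgc4*-203 (2272 bases, 37815401 to 37841873), which keeps 153 bases of the variable exon and shares 93.3% of its 31-base stretches with other members, while the full-length *Pcdhgc4*-201 has 5024 bases. This gene was thus assigned to nearly the same transcript length in both genotypes.

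Behind these, *Pcdhgc5* and *Pcdhgb2* were higher in *Arid1a* cKO, while *Pcdhgc3*, at a like level in *Arid1a* WT, was not. *Pcdhgc5*, the last C-type gene of the cluster, had 57, 56, 73 and 45 counts in *Arid1a* WT and 211, 188, 227 and 206 in *Arid1a* cKO. No wild-type library came near the mutant range. Its level went from 2.77 ± 0.674 to 11.5 ± 1.16 CPM (SD, n = 4 each), a log2 fold change of 2.06 (SE 0.14). *Pcdhgb2* had 27, 56, 46 and 24 counts against 154, 134, 104 and 102, a log2 fold change of 1.91 (SE 0.24), again without overlap. The effective length of *Pcdhgb2* was 4724 to 4739 bases, near the 4661 bases of its full-length transcript. That of *Pcdhgc5* was 4940 to 5031 bases in *Arid1a* cKO and reached 5163 bases in *Arid1a* WT. In every library it lay between the 4741 bases of the full-length transcript and the 5777 bases of an annotated transcript with a retained intron.

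*Pcdhga1*, the first gamma gene, had 0, 9, 0 and 0 counts in *Arid1a* WT and 18, 21, 30 and 19 in *Arid1a* cKO (log2 fold change 3.43, SE 0.65). All wild-type reads came from replicate 2, and every mutant library exceeded it. *Pcdhga4* had 3, 5, 0 and 7 counts against 23, 10, 24 and 13 (2.39, SE 0.49), without overlap. *Pcdhga6* had 0, 1, 5 and 0 counts against 1, 9, 7 and 13 (2.45, SE 0.87), and most of its few wild-type reads came from replicate 3. Its genotypes overlapped, and its call was lost without *Arid1a* WT replicate 2, without *Arid1a* cKO replicate 4 and on both log2 TPM scales.

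Without *Pcdhga12* and *Pcdhgc4*, the gamma sum was 7.62, 11.3, 12.5 and 8.60 CPM in *Arid1a* WT and 26.2, 25.6, 23.0 and 29.7 CPM in *Arid1a* cKO, a log2 ratio of 1.38. The genotypes were well separated in this sum. In all, 6 of the 21 gamma members tested were called higher, 5 of them without overlap, and 15 were not called, beside the same shares of 36.5% and 34.0% over all genes. The cluster median was 0.52, or 0.30 with members at their floor. *Pcdhgc3*, the C-type gene next to *Pcdhgc4*, was not among those higher, at 2.18 ± 0.538 CPM in *Arid1a* WT and 1.63 ± 0.679 CPM in *Arid1a* cKO (-0.44).

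Alpha and gamma members share much of their sequence with other members. The share of a gene's 31-base stretches found on the same strand in other members was 44.9% to 70.2% in the alpha cluster, 27.3% to 67.5% in the gamma cluster and 0% to 22.5% in the beta cluster. With genes other than the members counted as well, it was 45.5% to 90.7% in the alpha cluster and 33.0% to 67.5% in the gamma cluster. The highest alpha share was that of *Pcdha4*. The read-through loci *Gm37013*, *Gm38666* and *Gm38667*, which overlap the clusters, held 8 counts in all, every one in *Arid1a* WT replicate 4.

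Genes around the clusters were called in both directions. Of 43 other genes inside the clusters or within 1000000 bases of either end, 38 were tested, 7 were called higher and 19 lower, with a median log2 fold change of -0.36, beside 36.5% higher, 37.5% lower and a median of -0.02 over all genes tested. The difference from all genes was not tested. *Taf7*, a TFIID subunit gene between the beta and gamma clusters (37640491 is its first base), went from 38.9 ± 4.04 to 21.3 ± 1.29 CPM (log2 fold change -0.87, SE 0.08, quasi-likelihood test in edgeR, Benjamini-Hochberg adjusted p = 1.0e-07, n = 4 each). The largest changes were in *Gm6756* (2.15, SE 0.28), *Hbegf*, an EGF receptor ligand (-2.02, SE 0.26), and *Hars2*, the mitochondrial histidyl-tRNA synthetase (-1.53, SE 0.08). *Pfdn1* (-0.03) and *Pura* (0.09) were not called. *Gm6756* was the tested gene nearest to the alpha cluster, and its level rose from 0.321 ± 0.0957 to 1.45 ± 0.259 CPM.

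**Figure D5:**
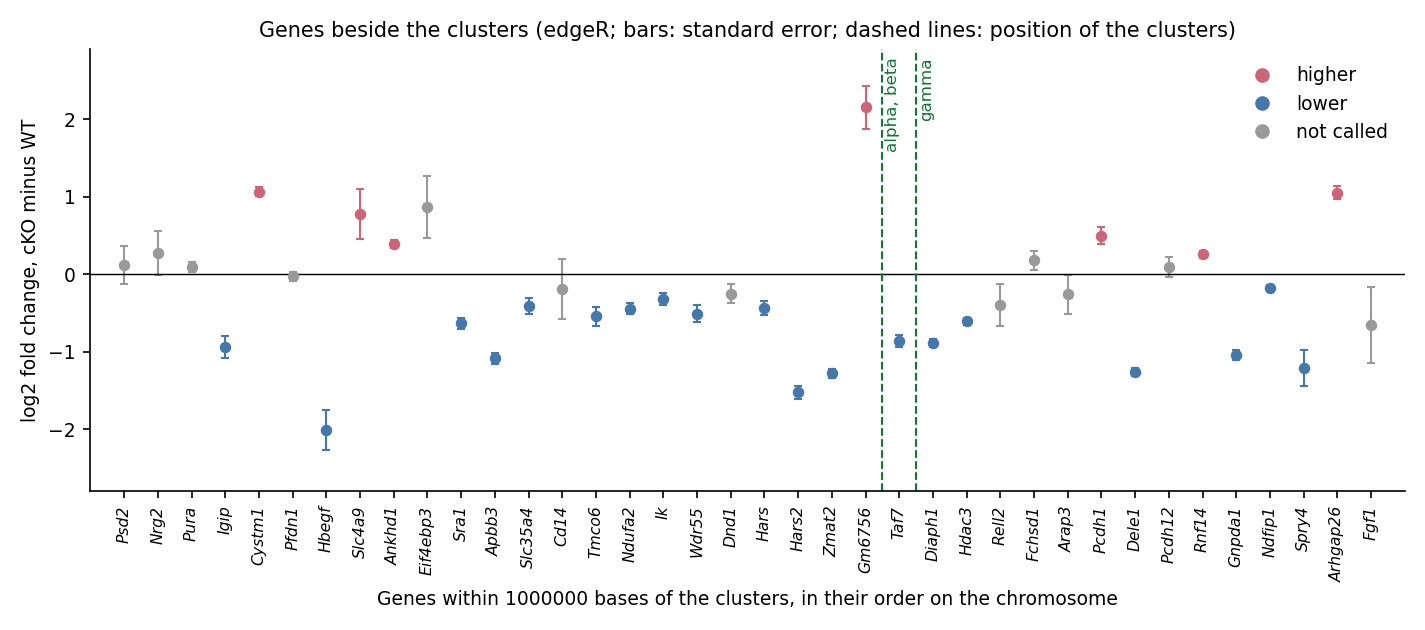
Log2 fold change (*Arid1a* cKO minus *Arid1a* WT) with its standard error from edgeR for the 38 tested genes beside the clusters, in chromosomal order, with dashed lines where the clusters lie. 19 genes are called lower (blue) and 7 higher (red), and *Taf7*, between the lines, is at -0.87.

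The non-clustered protocadherins, which sit alone elsewhere in the genome or, as *Pcdh1* and *Pcdh12*, beside the gamma cluster, moved in both directions. Of 12 genes, 10 were tested, 5 were called higher and 1 lower, beside 36.5% higher and 37.5% lower over all genes tested, with a median log2 fold change of 0.41 against -0.02. *Pcdh9* went from 0.849 ± 0.296 to 4.52 ± 0.613 CPM (log2 fold change 2.41, SE 0.21, quasi-likelihood test in edgeR, Benjamini-Hochberg adjusted p = 8.9e-08). *Pcdh8* went from 3.61 ± 0.821 to 0.721 ± 0.160 CPM (-2.32, SE 0.23, adjusted p = 3.3e-07 by the same edgeR test), and *Pcdh19* from 0.157 ± 0.0843 to 0.503 ± 0.0821 CPM (1.67, SE 0.43, adjusted p = 0.0030 by the same edgeR test). None of these 3 genes overlapped between genotypes in CPM, and the *Pcdh19* call was lost on both log2 TPM scales. In TPM, *Pcdh9* did overlap, at 0.61 ± 0.41 in *Arid1a* WT and 1.53 ± 0.96 in *Arid1a* cKO (SD, n = 4 each). *Pcdh12* (0.09) and *Pcdh7* (0.31) were not called, but *Pcdh7* was called higher with length offsets (0.61) and on log2(TPM + 1).

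Among 30 genes of promoter choice and silencing, 15 were called higher, 12 lower and 3 were not called, beside 74.0% of all genes called (36.5% higher, 37.5% lower), and the median log2 fold change was 0.05. *Rec8*, a meiotic cohesin subunit, went from 23.8 ± 2.27 to 134 ± 3.18 CPM (log2 fold change 2.50, SE 0.06). *Stag2*, a cohesin subunit of mitotic cells, went from 19.0 ± 0.904 to 85.6 ± 7.51 CPM (2.17, SE 0.07), and *Dnmt3l*, a cofactor of de novo DNA methylation, from 2.76 ± 0.222 to 13.8 ± 0.650 CPM (2.32, SE 0.09). None of these 3 overlapped between genotypes. *Ctcfl*, the testis paralogue of CTCF, was not called (-0.50, adjusted p = 0.23 by edgeR), but *Arid1a* WT replicate 3 stood at 81.0 CPM against 18.3 to 25.4 in the other wild-type libraries, and without it *Ctcfl* was called higher (0.23). *Wiz*, a zinc finger protein found at promoters and CTCF sites, was at -0.08 and was not called.

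Of 25 partners and processing enzymes of protocadherins, 9 were called higher, 10 lower and 6 were not called, near the shares over all genes (36.5% and 37.5%), which also stand beside the counts of the lists that follow. *Ncstn*, a subunit of the gamma-secretase that cleaves protocadherins, was lower (-1.82, SE 0.05), as was *Marcks* (-1.41, SE 0.09), and *Wasf1* of the WAVE complex was higher (1.24, SE 0.08). *Psenen* (-0.13) and *Nckap1* (0.01) were not called, although both were called lower on the TPM scale. Of 15 classical cadherins and catenins, 6 were called higher, led by *Cdh11* (2.53) and *Jup* (1.56), and 4 lower, including *Cdh3* (-1.26), while *Cdh5* and *Cdh1* were not called. Of 19 neuronal genes tested, 8 were called higher, led by *Map2* (2.26), *Nrxn3* (1.94) and *Elavl3* (1.82), and 3 lower, and *Nrxn2* and *Gria2* were not called. The medians of these lists were -0.10, 0.20 and 0.46.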

How the data were processed

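RNA-seq of Sta-Put purified pachytene spermatocytes was compared between 4 *Arid1a* WT and 4 *Arid1a* cKO libraries, grouped by genotype as labelled. The authors quantified paired-end reads with Salmon on the mm10 annotation, summarised them to genes with tximport and deposited estimated counts, not normalised. The authors also deposited TPM, scaled for transcript length and library. A deposited table of their DESeq2 log2 fold changes, standard errors and p-values was not used.

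Estimated counts were rounded, although the design assumed whole counts, and genes whose counts over all 8 libraries came to 10 or more were fitted with edgeR 4.0.16 in R 4.3.3 (TMM, glmQLFit, glmQLFTest, genotype only) with calls at 0.05 after Benjamini-Hochberg adjustment. Cluster sums were counts divided by TMM library sizes. The floor of 3 counts covers counting error only. Effective length was count divided by TPM, calibrated in each library on 591 to 642 genes with a single GENCODE M21 transcript of at least 2000 bases and 50 counts. The transcripts behind the estimates were inferred from these lengths, since the transcript set of the quantification was not used here. Coordinates were from RefSeq GRCm38.p6, which matched 21036 of 21058 genes, and GENCODE M21. The scripts were tested on simulated data.

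Named genes were *Pcdha11*, the 4 most abundant members of each cluster by TPM and the 3 with the largest called change in each direction. Of each other list, they were the 3 largest called changes and the 2 most abundant genes not called. *Pcdhgc3*, *Pcdhga2*, the 7 alpha members not called, the untested beta genes and the read-through loci were named after their values were seen. The members and lists were chosen with earlier results of these data known. The alternatives were DESeq2 1.42.0, DESeq2 size factors, no TMM, filterByExpr, no filter, a replicate block, length offsets, limma 3.58.1 on log2(TPM + 1) and log2(TPM + 0.1), sums of TPM, and each library left out in turn.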

Additional observations from a re-analysis of the deposited data

Results flagged for a closer look

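Of 110 groups of 4 libraries examined for 1 library far from the others, 4 passed Dixon's critical value, and chance alone flags about 1 group in 20, or 5.5 groups. The gap of the extreme library to its nearest neighbour, divided by the range of its group, is given for each. For *Pcdhga1* in *Arid1a* WT the ratio was 1, since replicate 2 stood at 0.412 CPM and the others at 0. For *Ctcfl* in *Arid1a* WT it was 0.887, replicate 3 standing at 81.0 CPM against 18.3 to 25.4. For *Cdh11* in *Arid1a* cKO it was 0.877, replicate 1 standing at 11.3 CPM against 9.76 to 9.95. For *Nrxn3* in *Arid1a* cKO it was 0.841, replicate 2 standing low at 8.91 CPM against 10.3 to 10.6.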

How the results depend on the processing

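No named gene that was called changed sign under the alternatives, but *Ctcfl* (-0.50, not called) was called at 0.23 without *Arid1a* WT replicate 3, and *Nckap1* (0.01, not called) was called at -0.24 with length offsets and lower on both TPM scales. Other named genes called only under an alternative were *Pcdh7* (length offsets and log2(TPM + 1)), *Pfdn1* (no TMM and both TPM scales), *Psenen* (6 settings), *Gria2* (0.72, without *Arid1a* WT replicate 3) and *Wiz* (without *Arid1a* WT replicate 4). The number of members called lower was 1 instead of 3 in DESeq2, with filterByExpr and on log2(TPM + 1), and 1 to 4 with a library left out. It was lowest without *Arid1a* WT replicate 3 or *Arid1a* cKO replicate 1. Without *Arid1a* WT replicate 1 or *Arid1a* cKO replicate 2 or 4, the alpha members called lower also fell to 1, and 1 gamma member became called lower (*Pcdhgc3* without *Arid1a* WT replicate 1 or *Arid1a* cKO replicate 4, *Pcdhga2* without *Arid1a* cKO replicate 2). The number called higher was 10 to 15 against 14. With length offsets, 2 non-clustered protocadherins were lower instead of 1 and 6 higher instead of 5. The log2 ratio of the alpha sums was -1.015 without TMM, -0.89 with DESeq2 size factors and -0.40 as TPM, and that of the gamma sums 0.27 without TMM and 0.22 as TPM. The log2 fold change of *Pcdha11* was 6.52 with length offsets, 3.49 on log2(TPM + 1) and 5.72 on log2(TPM + 0.1), scales that differ in their use of its transcript length and in their pseudocount. Without TMM the median over all genes moved from -0.02 to -0.12.

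Same-numbered libraries correlated at -0.07 to 0.13 in their deviations and shared only a number. With the replicate number as a block, *Pcdha11* was at 4.43, 13 members were called higher and 3 lower, and *Pcdhb4* (1.53) was no longer called. Not every library correlated best with its own number.

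Of the 58 members, 14 held too few reads to test, and in the alpha and gamma clusters the split of constant exon reads among genes could not be checked from gene totals.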
